A study of Mus musculus with 4 samples.

Results

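Signaling by the colony-stimulating factors was followed at the mRNA level through 9 genes in mouse peritoneal macrophages: the ligand gene Csf1, the receptor genes Csf1r, Csf2ra, Csf2rb, Csf2rb2 and Csf3r, the kinase gene Jak2 and the transcription factor genes Stat5a and Stat5b. They were taken by gene name from the RNA-seq count table, where each of the 9 had 1 entry among 54532, and all 9 passed the filter of at least 10 reads in at least 1 library that kept 13715 genes. The study addressed the aryl hydrocarbon receptor (AHR), a ligand-activated transcription factor, in macrophages exposed to breast tumor signals. Wild-type (WT) macrophages received normal medium or 30% 4T1-CM, that is, medium conditioned by 4T1, a mouse mammary carcinoma cell line. Each medium held either the solvent DMSO or 10 µM CH223191, an AHR inhibitor. Each of the 4 conditions had 1 library, called here NM-DMSO and NM-CH for normal medium with DMSO or CH223191, and CM-DMSO and CM-CH for 4T1-CM with the same. Values of the 4 libraries are given in this order, and the libraries with DMSO or with CH223191 are called an arm. The study's methods describe peritoneal macrophages of BALB/c mice injected with thioglycollate broth, which draws leukocytes into the peritoneal cavity, and a pretreatment with the compound before the change of medium. The WT mice were 8 to 10 weeks old per those methods, and the number of mice and the time in medium before RNA was taken are not given in the sources used here.

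M-CSF, the product of Csf1, signals through the receptor tyrosine kinase CSF1R and keeps most macrophages alive. GM-CSF binds a specific alpha chain, the product of Csf2ra, which pairs with the common beta chain, the product of Csf2rb. The beta chain carries the kinase JAK2, which phosphorylates STAT5A and STAT5B, and these enter the nucleus and switch on target genes, among them their own feedback inhibitors. G-CSF acts through CSF3R, also by way of JAK and STAT proteins, and is known chiefly for its effect on neutrophils.

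The libraries held between 15535405 and 17557127 reads assigned to genes. Levels are given as CPM (reads per 1000000 reads) after TMM scaling, and levels of different genes are compared only as CPM per kilobase of gene length. Coordinates are those of the deposited table, which for 7 of the 9 genes are identical to GENCODE M21 on GRCm38. The 95% intervals cover counting error alone, and differences between 2 libraries have no replicate check. All 8 macrophage markers were detected, and their summed level was 24660 CPM in NM-DMSO, 31652 in NM-CH, 44690 in CM-DMSO and 47494 in CM-CH. From normal medium to 4T1-CM, the rise in this sum came from Lyz2, and the other 7 markers summed to 12772, 16467, 11733 and 11922 CPM. From NM-DMSO to NM-CH, both Lyz2, at 11888 and 15185 CPM, and the sum of the other 7 rose. Summed markers reached 2.14 to 9.20 CPM for monocytes, 1.07 to 2.40 for dendritic cells, 5.97 to 16.2 for eosinophils and 5.29 to 34.3 for B cells, and those of mast cells, NK cells and mesothelial cells at most 0.755. Markers of T cells and basophils had 0 reads in all 4 libraries. The 5 epithelial markers that would show 4T1 cells summed to between 0.439 and 1.35 CPM, with Krt19 at 0 reads. In bulk RNA, fewer cells of a type and less RNA per cell cannot be told apart.

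With 4T1-CM, the mRNAs of CSF1R, of both beta chains and of JAK2 were about doubled, those of the GM-CSF receptor alpha chain and of M-CSF were lower, and those of STAT5A and STAT5B differed little. In the DMSO arm, Csf1r, Csf2rb and Csf2rb2 reached a 2-fold higher level in 4T1-CM, which is 3 of the 9 genes beside 12.2% of all genes kept, and 0 reached a 2-fold lower level, beside 6.11% (18.3% for both directions). In the CH223191 arm, Csf2rb2 and Jak2 reached a 2-fold higher level, 2 of 9 beside 12%, and 0 a 2-fold lower level, beside 7.86% (19.9% for both directions). Csf1r and Csf2rb lay close to 2-fold in both arms, Jak2 in the DMSO arm and Csf2rb2 in the CH223191 arm, so these counts turn on small differences. At 1.5-fold, a threshold chosen after seeing the data, the count was 6 of 9 in both arms, beside 35.3% of all genes in the DMSO arm and 38.4% in the CH223191 arm. The median log2 ratio of the 9 genes was 0.58 in the DMSO arm and 0.84 in the CH223191 arm, beside 0.01 and 0.02 for all genes kept. Ratios of CH223191 to DMSO were smaller, and 0 of the 9 genes reached 2-fold in either medium, where 8.15% of genes did so in normal medium and 5.41% in 4T1-CM. None of the 9 reached 1.5-fold there either, beside 18.1% and 12.3% of all genes.

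**Figure D1:**
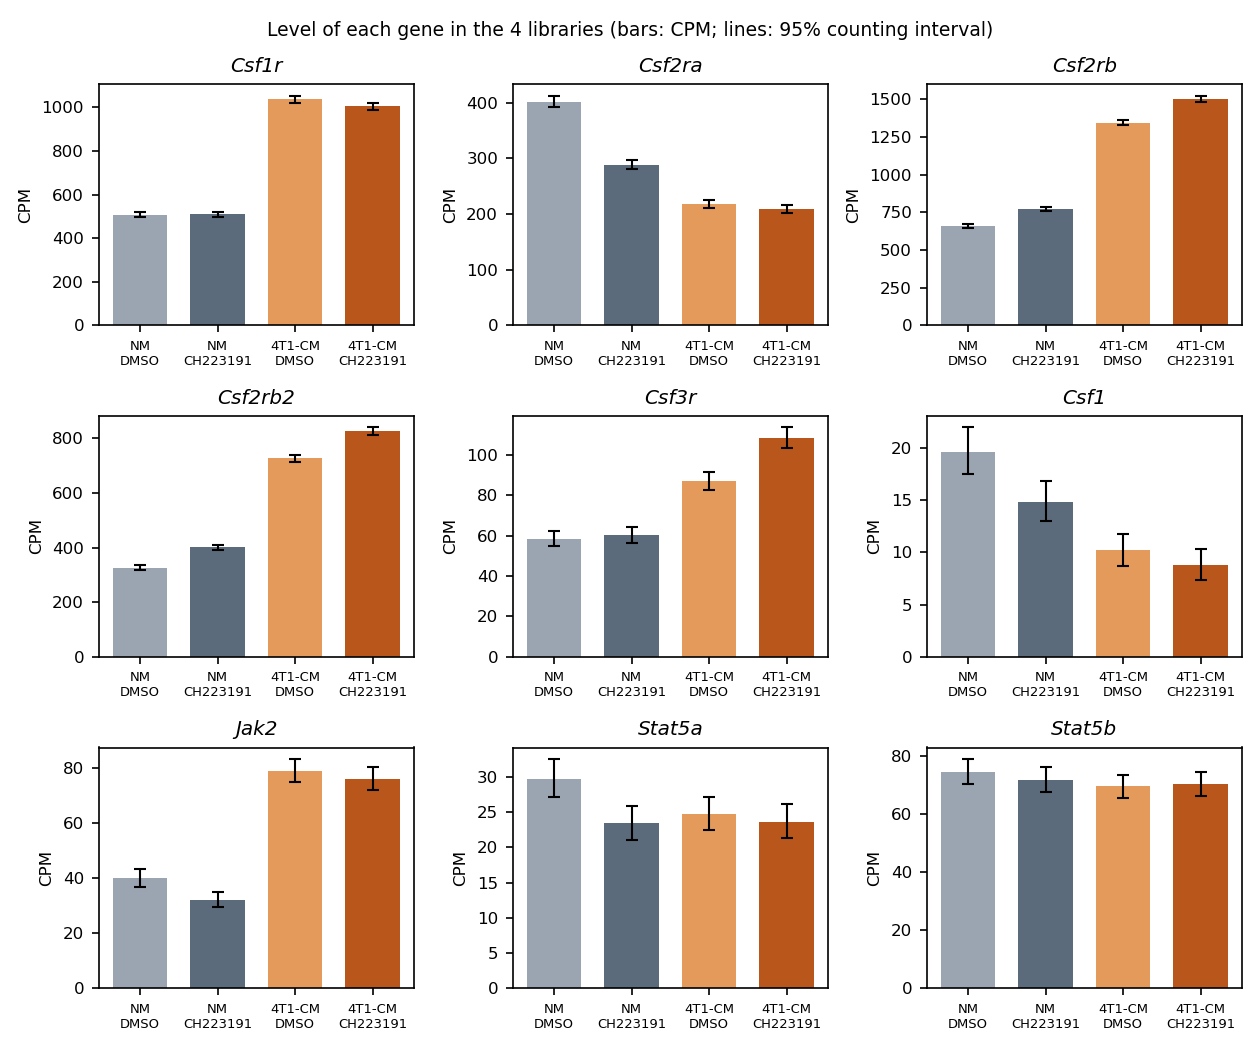
Level of each of the 9 genes in the 4 libraries, 1 bar per library on a linear axis in CPM that starts at 0, with the exact 95% Poisson counting interval as a line; each panel has its own scale. The bars of Csf1r, Csf2rb, Csf2rb2, Csf3r and Jak2 are higher in both 4T1-CM libraries (orange) than in both normal medium libraries (grey), those of Csf1 and Csf2ra are lower, and those of Stat5b lie between 69.6 and 74.7 CPM.

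The ligand gene Csf1 (ENSMUSG00000014599, chr3:107741048-107760469 on the minus strand) was the lowest of the 9 genes per length. It had 313 reads or 19.6 CPM in NM-DMSO, 235 reads or 14.8 CPM in NM-CH, 178 reads or 10.2 CPM in CM-DMSO and 142 reads or 8.74 CPM in CM-CH. Both 4T1-CM libraries were below both normal medium libraries. The log2 ratio of 4T1-CM to normal medium was -0.95 (95% interval -1.22 to -0.68) in the DMSO arm and -0.76 (-1.07 to -0.45) in the CH223191 arm, so Csf1 was 1.93-fold and 1.69-fold lower. In normal medium CH223191 against DMSO gave -0.41 (-0.66 to -0.16), and in 4T1-CM it gave -0.22 (-0.55 to 0.11). Fibroblasts are another source of M-CSF, and the summed level of 6 fibroblast markers, of which 5 reached 10 reads, was 63.0 and 30.1 CPM in normal medium and 149 and 127 CPM in 4T1-CM. Col1a1 had 359, 118, 958 and 704 reads. Pdgfra, another of the 6, had 91, 49, 83 and 70 reads, and Lum had 3 reads in NM-DMSO and 0 in the others. Their part in the Csf1 values was not tested.

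Other ligands of these receptors were close to absent from the macrophages. Csf2 and Il3, which encode GM-CSF and IL-3, had 0 reads in all 4 libraries. The floor of 3 reads, used here for counts of 0, stands at between 0.171 and 0.189 CPM. Csf3, the G-CSF gene, had 4 reads in CM-CH and 0 elsewhere. Il34, which encodes the second ligand of CSF1R, had 1 read in each of 2 libraries, and Il5 had 1 read in 1 library.

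Csf1r (ENSMUSG00000024621, chr18:61105572-61132149 on the plus strand) ranked 415, 455, 176 and 177 by level per length among the genes kept. Its reads were 8092 in NM-DMSO, 8104 in NM-CH, 18166 in CM-DMSO and 16341 in CM-CH, or 508, 510, 1038 and 1006 CPM. The 2 libraries of each medium were close to each other and the media were far apart. For 4T1-CM against normal medium the log2 ratio was 1.03 (0.99 to 1.07) in the DMSO arm and 0.98 (0.94 to 1.02) in the CH223191 arm, and the difference between these responses was -0.05 (-0.10 to 0.00). Against DMSO, CH223191 gave 0.01 (-0.04 to 0.05) in normal medium, and in 4T1-CM it gave -0.04 (-0.08 to -0.01). The last 871 bases of Csf1r are shared with Hmgxb3 on the opposite strand, and the strand setting of the counting is not given in the sources used here. Hmgxb3 had between 495 and 565 reads. The macrophage markers moved with Csf1r in part. Adgre1, which encodes F4/80, had 4098, 3912, 17920 and 14168 reads, and Fcgr1 and Itgam were also higher in both 4T1-CM libraries, while Ctss had between 76441 and 81019. Lgals3, with 99263, 139675, 62535 and 58753 reads, and Mrc1, with 2735, 2254, 1751 and 1503, were lower there. Their part in the values of the receptor genes was not tested.

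Csf2ra (ENSMUSG00000059326, chr19:61224402-61228418 on the minus strand) encodes the chain that gives the GM-CSF receptor its specificity, and it went the opposite way to the beta chains. It had 6407 reads or 402 CPM in NM-DMSO, 4587 reads or 288 CPM in NM-CH, 3818 reads or 218 CPM in CM-DMSO and 3402 reads or 209 CPM in CM-CH. Normal medium with DMSO stood above the other 3 libraries. The log2 ratio of 4T1-CM to normal medium was -0.88 (-0.94 to -0.82) in the DMSO arm and -0.46 (-0.53 to -0.40) in the CH223191 arm. The response was therefore 0.42 (0.33 to 0.51) less negative with CH223191, the widest such difference of the 9 genes. In normal medium CH223191 against DMSO gave -0.48 (-0.53 to -0.42), and in 4T1-CM it gave -0.06 (-0.13 to 0.01), and the first of these was the largest ratio of any of the 9 genes between CH223191 and DMSO.

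The common beta chain gene Csf2rb (ENSMUSG00000071713, chr15:78325752-78353847 on the plus strand) serves the receptors of GM-CSF, IL-3 and IL-5. Its reads were 10498 in NM-DMSO, 12266 in NM-CH, 23534 in CM-DMSO and 24397 in CM-CH, or 659, 771, 1344 and 1502 CPM. Both 4T1-CM libraries were above both normal medium libraries, and within each medium the CH223191 library was the higher. For 4T1-CM against normal medium the log2 ratio was 1.03 (0.996 to 1.06) in the DMSO arm and 0.96 (0.93 to 0.99) in the CH223191 arm. Against DMSO, CH223191 gave 0.23 (0.19 to 0.27) in normal medium, and in 4T1-CM it gave 0.16 (0.13 to 0.19).

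Csf2rb2 (ENSMUSG00000071714, chr15:78282507-78305721 on the minus strand) is a copy found in mice whose product serves IL-3. It had 5188 reads or 325 CPM in NM-DMSO, 6374 reads or 401 CPM in NM-CH, 12723 reads or 727 CPM in CM-DMSO and 13408 reads or 825 CPM in CM-CH. The order of the libraries was that of Csf2rb. The log2 ratio of 4T1-CM to normal medium was 1.16 (1.11 to 1.21) in the DMSO arm and 1.04 (0.999 to 1.09) in the CH223191 arm. In normal medium CH223191 against DMSO gave 0.30 (0.25 to 0.35), and in 4T1-CM it gave 0.18 (0.15 to 0.22). The 2 genes lie 20030 bases apart on opposite strands. Their centered log2 levels over the 4 libraries were 0.12 apart as a Euclidean distance, the smallest distance between any 2 of the 9 genes.

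Because Csf2rb and Csf2rb2 are near-identical, how their reads were divided is uncertain. In the GENCODE M21 annotation of GRCm38 their coding sequences have 2688 and 2634 bases, of which 2628 could be aligned, with 125 differing bases and an identity of 95.2%. Of the 50-base words of the transcripts, 12.3% of those of Csf2rb and 18.4% of those of Csf2rb2 occur in the other gene. Of the 100-base words, 4.63% and 6.82% do. The longest identical stretch runs for 242 bases within 1 coding exon of each gene, at chr15:78348577-78348818 on the plus strand for Csf2rb and at chr15:78284630-78284871 on the minus strand for Csf2rb2, and reads inside it could come from either:
Csf2rb and Csf2rb2, identical stretch: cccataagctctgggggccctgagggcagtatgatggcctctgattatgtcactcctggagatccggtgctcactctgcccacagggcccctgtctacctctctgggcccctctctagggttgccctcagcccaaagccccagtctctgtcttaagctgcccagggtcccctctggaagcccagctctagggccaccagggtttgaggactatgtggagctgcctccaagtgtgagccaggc
The 90-base window with the most differences, 16 beside a median of 3, shows where reads can be assigned. It lies in a coding exon at chr15:78338897-78338986 on the plus strand in Csf2rb and at chr15:78294345-78294434 on the minus strand in Csf2rb2. Capitals mark the bases that differ:
Csf2rb: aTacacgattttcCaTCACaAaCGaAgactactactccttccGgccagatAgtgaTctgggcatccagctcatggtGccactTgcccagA
Csf2rb2: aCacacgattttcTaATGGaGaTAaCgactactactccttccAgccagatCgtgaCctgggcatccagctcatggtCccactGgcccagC
Summing the reads of both genes gave a log2 ratio of 1.07 in the DMSO arm and 0.99 in the CH223191 arm for 4T1-CM against normal medium.

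Csf3r (ENSMUSG00000028859, chr4:126024550-126044440 on the plus strand), the G-CSF receptor gene, was lower than the other receptor genes per length. It had 929 reads or 58.3 CPM in NM-DMSO, 959 reads or 60.3 CPM in NM-CH, 1521 reads or 86.9 CPM in CM-DMSO and 1759 reads or 108 CPM in CM-CH. The 4T1-CM libraries were again above the normal medium libraries, with a log2 ratio of 0.58 (0.46 to 0.70) in the DMSO arm and 0.84 (0.73 to 0.96) in the CH223191 arm. Against DMSO, CH223191 gave 0.05 (-0.08 to 0.18) in normal medium, and in 4T1-CM it gave 0.32 (0.22 to 0.42). Neutrophils also carry this receptor. Of 9 neutrophil markers, 3 reached 10 reads, and S100a9, Ly6g and Retnlg had 0 reads in all 4 libraries. The sum of the 9 was 9.28 and 14.3 CPM in normal medium and 155 and 72.9 CPM in 4T1-CM, through Mmp8 with 35, 21, 2142 and 759 reads and S100a8 with 99, 190, 560 and 412. Cxcr2, which also reached 10 reads, went the other way with 12, 9, 2 and 0 reads. Their part in the Csf3r values was not tested. Of the 50-base words of Csf3r, 8.84% also occur in AC105061.2, a processed pseudogene, and of its 100-base words 0.376% do.

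Per kilobase of the table's gene length, the 4 most abundant receptor genes changed order with the medium. In NM-DMSO, Csf2ra was highest at 217 CPM per kb, before Csf1r at 104, Csf2rb at 90.5 and Csf2rb2 at 68.7. In CM-DMSO, Csf1r was highest at 212 CPM per kb, before Csf2rb at 185, Csf2rb2 at 153 and Csf2ra at 118. The ratio of Csf2rb to Csf2ra per length went from 0.416 in NM-DMSO and 0.679 in NM-CH to 1.57 and 1.82 in 4T1-CM. The length used moves these ratios. With that of 1 annotated transcript per gene, a choice made after seeing the data, the ratio of Csf2rb to Csf2ra was 0.636 in NM-DMSO, 1.04 in NM-CH, and 2.39 and 2.78 in 4T1-CM. On both scales it was higher in both 4T1-CM libraries, and which of the 2 mRNAs was the more abundant in NM-CH depended on the length. The ratio of Csf1r to Csf2rb stayed between 0.984 and 1.15, or between 0.813 and 0.950 with the transcript lengths, so the order of these 2 genes depends on the length as well. Csf3r followed far below, between 16.1 and 30.0 CPM per kb. The alpha chain of the IL-3 receptor, Il3ra, had between 847 and 947 reads with log2 ratios of -0.30 and -0.02 under 4T1-CM, and that of the IL-5 receptor, Il5ra, had 3 reads in 1 library and 0 in the others.

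**Figure D2:**
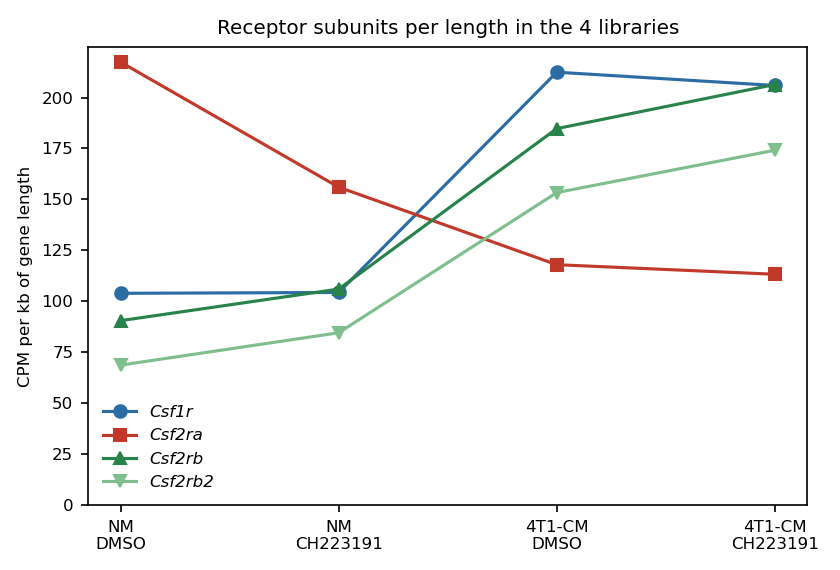
Level per length of 4 receptor genes, in CPM per kilobase of the table's gene length on a linear axis, in the 4 libraries; the lines join the values of 1 gene and do not stand for a time course. Csf2ra drops from 217 in NM-DMSO to 113 in CM-CH, and the other 3 genes lie below it in normal medium and above it in 4T1-CM.

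The sequences before the start of Csf2ra, which was lower in 4T1-CM, and of Csf2rb2 and Jak2, which were higher, are shown from the RefSeq promoter table for GRCm38.p6, which gave a window for 7 of the 9 genes. Searched on both strands, and with overlaps counted, were the STAT motif TTCNNNGAA, the core GAGGAA bound by the macrophage factor PU.1 and the core GCGTG of the AHR site. In windows of 250 bases before the start, they occur in 7.02%, 23.3% and 28.2% of 32851 promoters. Capitals mark the matches. The window of Csf2ra, at chr19:61228419-61228668 on the minus strand, held 2 adjacent PU.1 cores just before the start. That of Csf2rb2, at chr15:78305722-78305971 on the minus strand, held 1 STAT motif near the start and 1 PU.1 core. That of Jak2, at chr19:29251553-29251802 on the plus strand, held 4 AHR cores. Of the other genes, Csf3r and 1 of 2 windows of Stat5a held 1 PU.1 core, 1 of 2 windows of Stat5b held 1 AHR core, and Csf1 held 0 matches. These are matches of letters and not measured sites:
Csf2ra: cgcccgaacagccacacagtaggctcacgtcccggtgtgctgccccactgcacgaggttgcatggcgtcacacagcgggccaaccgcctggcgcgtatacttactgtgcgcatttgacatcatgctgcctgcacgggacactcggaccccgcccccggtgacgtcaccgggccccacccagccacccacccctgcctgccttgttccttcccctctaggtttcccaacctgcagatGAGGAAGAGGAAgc
Csf2rb2: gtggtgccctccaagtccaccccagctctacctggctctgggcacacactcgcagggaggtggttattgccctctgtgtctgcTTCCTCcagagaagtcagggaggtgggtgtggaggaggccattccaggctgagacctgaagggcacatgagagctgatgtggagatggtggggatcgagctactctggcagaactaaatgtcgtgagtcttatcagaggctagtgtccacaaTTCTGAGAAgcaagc
Jak2: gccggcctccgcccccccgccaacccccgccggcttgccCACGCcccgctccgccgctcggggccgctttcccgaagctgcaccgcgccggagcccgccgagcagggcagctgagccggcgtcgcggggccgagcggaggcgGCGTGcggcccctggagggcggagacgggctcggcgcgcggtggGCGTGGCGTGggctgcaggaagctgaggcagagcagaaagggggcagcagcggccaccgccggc

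Jak2 (ENSMUSG00000024789, chr19:29251828-29313080 on the plus strand) encodes the kinase held by the beta chain. It had 638 reads or 40.0 CPM in NM-DMSO, 512 reads or 32.2 CPM in NM-CH, 1384 reads or 79.1 CPM in CM-DMSO and 1236 reads or 76.1 CPM in CM-CH. Both 4T1-CM libraries were above both normal medium libraries. For 4T1-CM against normal medium the log2 ratio was 0.98 (0.85 to 1.12) in the DMSO arm and 1.24 (1.09 to 1.39) in the CH223191 arm. In normal medium the CH223191 library was lower than the DMSO library, with a log2 ratio of -0.31 (-0.48 to -0.14), and in 4T1-CM the ratio was -0.06 (-0.17 to 0.06). Per length, the ratio of Jak2 to Jak1 was 0.171 and 0.164 in normal medium and 0.348 and 0.321 in 4T1-CM.

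Stat5a (ENSMUSG00000004043, chr11:100859351-100885169 on the plus strand) and Stat5b (ENSMUSG00000020919, chr11:100780731-100850724 on the minus strand) encode the transcription factors at the end of the pathway. Stat5a had 474 reads in NM-DMSO, 372 in NM-CH, 432 in CM-DMSO and 384 in CM-CH, or 29.7, 23.4, 24.7 and 23.6 CPM. The DMSO library in normal medium was the highest and the other 3 had overlapping counting intervals. Its own interval, from 27.117 CPM, just met that of CM-DMSO, which reached 27.118 CPM. Stat5b had 1191, 1143, 1219 and 1142 reads, or 74.7, 71.9, 69.6 and 70.3 CPM, and the intervals of all 4 libraries overlapped. The log2 ratio of 4T1-CM to normal medium was -0.27 (-0.46 to -0.08) in the DMSO arm and 0.02 (-0.19 to 0.22) in the CH223191 arm for Stat5a, and -0.10 (-0.22 to 0.01) and -0.03 (-0.15 to 0.09) for Stat5b. In normal medium CH223191 against DMSO gave -0.35 (-0.55 to -0.15), and in 4T1-CM it gave -0.06 (-0.26 to 0.14) for Stat5a. For Stat5b it gave -0.06 (-0.17 to 0.06) and 0.01 (-0.10 to 0.13). With the reads of both genes summed, CH223191 against DMSO in normal medium was -0.13. Per length, the level of Stat5b was between 3.24 and 3.96 times that of Stat5a in the 4 libraries, or between 1.79 and 2.19 times with the length of 1 annotated transcript per gene.

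These genes are neighbors too, 8626 bases apart, and their coding sequences of 2391 and 2358 bases have 2291 aligned bases with an identity of 90.8%. Of their 50-base words, 8.21% of those of Stat5a and 11% of those of Stat5b occur in the other gene. Of their 100-base words, 3.44% and 4.79% do. The 90-base coding window with the most differences has 28 and crosses an exon junction, within chr11:100861425-100861769 on the plus strand in Stat5a and chr11:100804978-100808436 on the minus strand in Stat5b. Capitals mark the bases that differ:
Stat5a: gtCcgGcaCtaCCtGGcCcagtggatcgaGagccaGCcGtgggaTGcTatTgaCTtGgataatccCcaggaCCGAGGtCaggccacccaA
Stat5b: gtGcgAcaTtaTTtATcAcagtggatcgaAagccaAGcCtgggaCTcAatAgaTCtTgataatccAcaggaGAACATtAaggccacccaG
The end of Stat5a overlaps Stat3 on the opposite strand by 72 bases, and Stat3 had 1832, 1911, 3686 and 3468 reads.

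**Figure D3:**
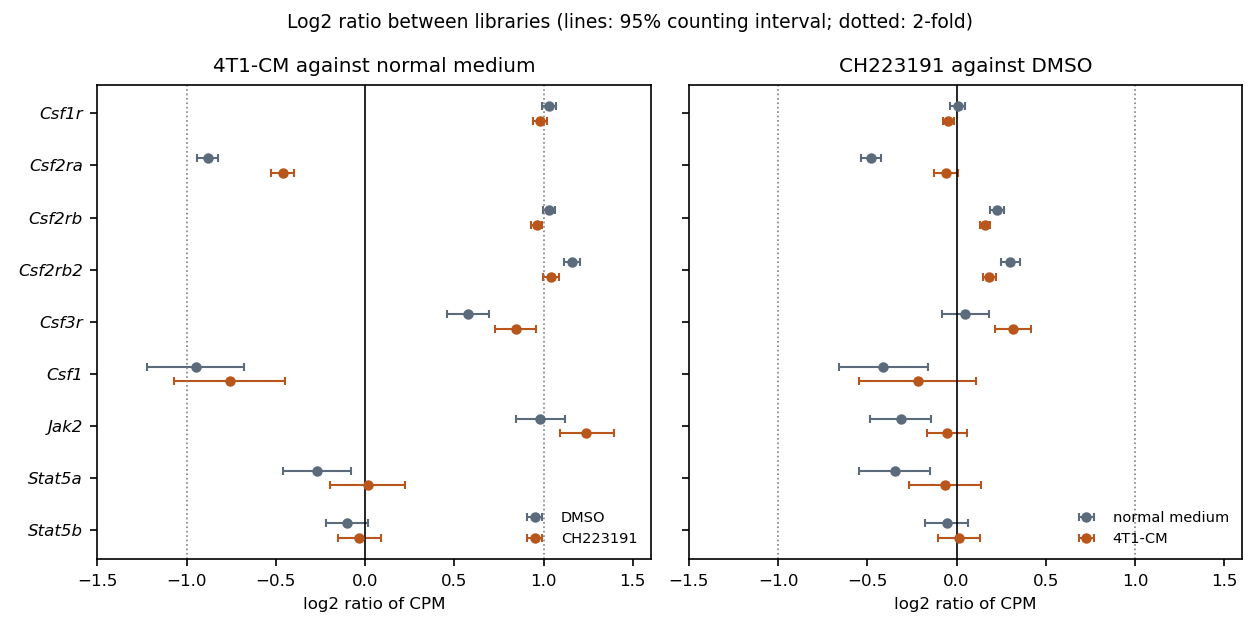
Log2 ratio of CPM of each gene for 4T1-CM against normal medium (left, DMSO arm in grey and CH223191 arm in orange) and for CH223191 against DMSO (right, in normal medium in grey and in 4T1-CM in orange), with lines for the 95% counting interval and dotted lines at 2-fold. Csf1r, Csf2rb, Csf2rb2 and Jak2 lie between 0.96 and 1.24 on the left, Csf1 and Csf2ra lie to the left of 0, and on the right all points lie between -0.48 and 0.32.

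Set against each other, the responses to 4T1-CM differed most between the arms for Csf2ra, by 0.42 (0.33 to 0.51), and by at most 0.28 for the other genes. As the CH223191 arm minus the DMSO arm, the difference in log2 ratio was 0.28 (0.00495 to 0.56) for Stat5a, 0.27 (0.10 to 0.43) for Csf3r and 0.26 (0.06 to 0.46) for Jak2. It was -0.07 (-0.11 to -0.02) for Csf2rb and -0.12 (-0.18 to -0.05) for Csf2rb2. For Csf1 it was 0.19 (-0.21 to 0.59) and for Stat5b 0.07 (-0.10 to 0.23), with intervals that include 0. These intervals compare 4 single libraries and not the conditions.

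The only tests came from edgeR, as a quasi-likelihood fit in which medium and inhibitor add up, over all 4 libraries. It takes the inhibitor arms as repeats of each medium, assumes no interaction and leaves 1 residual degree of freedom. Of the 9 genes, Csf2ra departs most from that assumption, with log2 ratios of -0.88 in the DMSO arm and -0.46 in the CH223191 arm. With p adjusted over 13715 genes, Csf1r (log2 1.01, adjusted p = 0.000126), Csf2rb (0.995, 0.000118), Csf2rb2 (1.10, 8.3e-05), Csf3r (0.71, 0.00189) and Jak2 (1.11, 0.000109) rose with 4T1-CM. Csf1 (-0.86, adjusted p = 0.0033) and Csf2ra (-0.67, adjusted p = 0.00461) fell. The values for Stat5a were -0.13 with an adjusted p of 0.533 and those for Stat5b were -0.07 with 0.707. That is 5 of 9 genes higher beside 16.4% of all genes, and 2 of 9 lower beside 16.2%. For CH223191, 0 of the 9 genes passed in this fit, with adjusted p between 0.797 and 0.98 in edgeR and with unadjusted p from 0.0756 upward, beside 0.0729% of all genes higher and 0.00729% lower.

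Other genes of the pathway moved in both directions. The lists here and below were chosen with earlier results of these data known, so their shares beside all genes are descriptions and not tests. Genes named below because they passed the additive fit, or because they reached 2-fold in a single comparison, were chosen after their values were seen. Of 53 genes in 6 lists of ligands, alpha chains, kinases, STATs, adaptors and inhibitors, 47 were kept. With 4T1-CM, 13 of them rose and 14 fell in the additive fit of edgeR, which is 13 and 14 of 47 beside 16.4% and 16.2% of all genes, and 0 passed for CH223191. A ratio could be taken for 46, and in the DMSO arm 1 of these reached 2-fold upward and 3 downward, beside 12.2% and 6.11% of all genes. In the CH223191 arm 3 did so in each direction, beside 12% and 7.86%. Their median log2 ratios of -0.07 and -0.01 were close to those of all genes.

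Among the other kinases, Fgr, Jak3 and Syk rose and Tec, Fes and Btk fell in that fit. Fgr, a SRC-family kinase of myeloid cells, had 358, 508, 1178 and 1205 reads, with log2 ratios of 1.58 (1.41 to 1.76) in the DMSO arm and 1.21 (1.06 to 1.37) in the CH223191 arm. The log2 ratios of Jak3 were 0.69 in the DMSO arm and 1.01 in the CH223191 arm, and those of Tec were -1.08 and -0.88. Of the other STAT genes, Stat2 and Stat3 rose and Stat6 fell. The log2 ratio of Stat3 was 0.87 (0.79 to 0.96) in the DMSO arm and 0.83 (0.75 to 0.91) in the CH223191 arm. Per length, Stat3 was 0.894 and 0.972 times Stat5b in normal medium and 1.76 and 1.77 times Stat5b in 4T1-CM.

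Of 20 adaptors and effectors, 4 rose and 7 fell in the additive fit of edgeR, beside the 16.4% and 16.2% of all genes. Dok1 and Dok2, which dampen signaling by tyrosine kinases in myeloid cells, were more than 2-fold lower in both comparisons. Dok1 had 1481, 1560, 688 and 630 reads and Dok2 had 1283, 1327, 495 and 464. Their log2 ratios were -1.24 and -1.34 for Dok1, and -1.51 and -1.55 for Dok2. Gab1, Gab2, Sos1 and Vav1 were the 4 that rose. The 4T1-CM log2 ratios of Gab1 were 0.78 in the DMSO arm and 1.17 in the CH223191 arm. Those of Tyrobp, which encodes the adaptor DAP12, were -0.74 and -1.61. Of 11 inhibitors, 0 reached 2-fold, while Ptprj and Inpp5d rose and Sh2b3, Ptpn1 and Cblb fell in that fit.

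Of 7 known STAT5 feedback and target genes, 4 rose with 4T1-CM and 1 fell in the additive fit of edgeR, beside 16.4% and 16.2% of all genes. Cish, a feedback inhibitor induced by STAT5, had 0 reads in both normal medium libraries, 15 in CM-DMSO and 24 in CM-CH, which with a floor of 3 reads per library is at least 4.55-fold and at least 7.83-fold higher. Socs3, induced by STAT3 as well as STAT5, had 20, 44, 1622 and 1385 reads, or log2 ratios of 6.17 (5.57 to 6.92) in the DMSO arm and 4.93 (4.51 to 5.41) in the CH223191 arm. Socs2 had 18, 9, 64 and 86 reads. The cytokine gene Osm had 66, 74, 327 and 315 reads, with log2 ratios of 2.17 and 2.05. Bcl2l1, a survival gene, went the other way with 4114, 3969, 1586 and 1556 reads and log2 ratios of -1.51 and -1.38. The adjusted p in edgeR was 0.00303 for Cish, 7.67e-08 for Socs3, 0.00124 for Socs2, 1.27e-05 for Osm and 1.46e-05 for Bcl2l1. The other 2 did not pass: Pim1, a kinase gene, had log2 ratios of -0.14 and 0.17 (edgeR adjusted p = 0.929), and Socs1, with at most 37 reads, had -0.48 and 0.08 (edgeR adjusted p = 0.691).

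Genes known to be higher in macrophages grown with GM-CSF than with M-CSF moved in both directions. Of 8, 7 were kept, and in each arm 2 reached 2-fold upward and 2 downward under 4T1-CM, beside 12.2% and 6.11% of all genes in the DMSO arm and 12% and 7.86% in the CH223191 arm, with medians of -0.33 and -0.53. Inhba, the activin A subunit gene, had 22, 31, 14254 and 11616 reads, with log2 ratios of 9.17 (8.61 to 9.88) and 8.50 (8.01 to 9.08). Ccl22 had 8, 8, 64 and 34 reads. Itgax, which encodes CD11c, went the other way with 37791, 39444, 14031 and 12849 reads and log2 ratios of -1.56 and -1.65. Ocstamp had at most 21 reads.

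Of 12 genes known to be higher with M-CSF, 10 had a ratio in each arm. In the DMSO arm 4 of them reached 2-fold upward and 1 downward, with a median of 0.37, and in the CH223191 arm 4 upward and 0 downward, with a median of 0.57, beside the same shares of all genes. The complement genes C1qa, with 146, 229, 674 and 691 reads, and C1qb, with 164, 269, 808 and 809, and the scavenger receptor gene Stab1, with 497, 417, 1133 and 940, were at least 2-fold higher in both comparisons. In the additive fit of edgeR 7 of the 12 rose and 2, Maf and Gas6, fell, beside 16.4% and 16.2% of all genes.

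**Figure D4:**
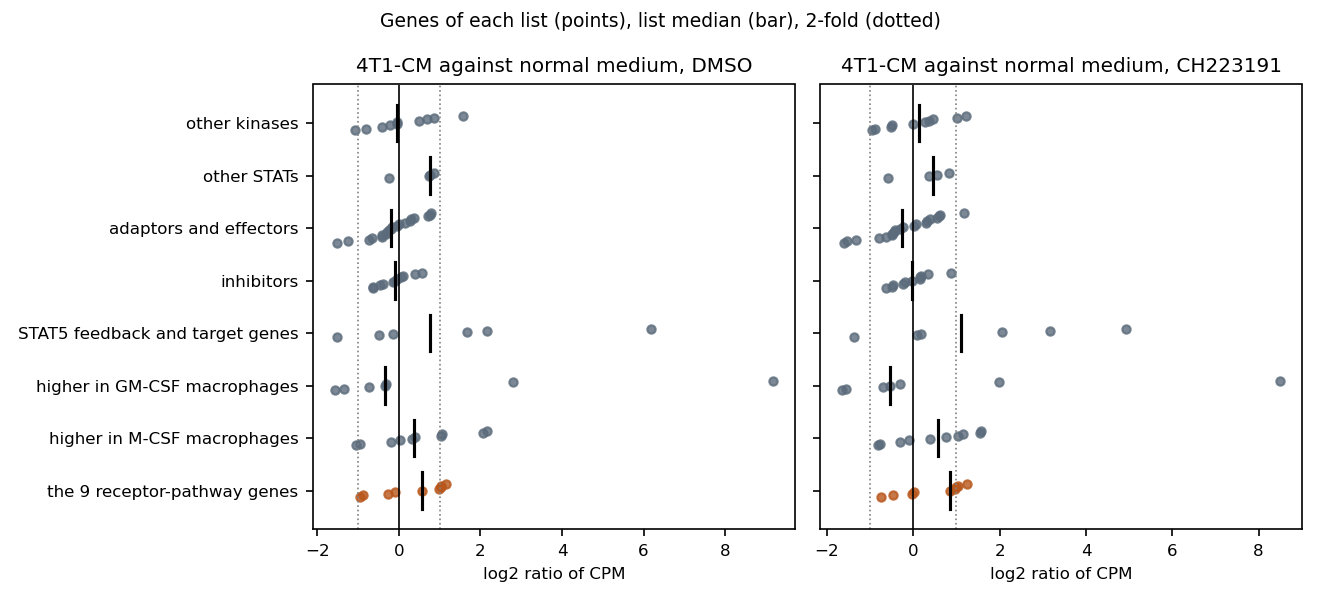
Log2 ratio of CPM for 4T1-CM against normal medium in the DMSO arm (left) and the CH223191 arm (right), 1 point per gene with more than 3 reads in both libraries, grouped by list, with a black bar at the list's median and dotted lines at 2-fold. The 9 receptor-pathway genes (orange) have medians of 0.58 and 0.84, and the points farthest to the right are Inhba at 9.17 and 8.50 and Socs3 at 6.17 and 4.93.

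For 6 of the 9 genes, the genes with the most similar pattern over the 4 libraries were found by the Euclidean distance between centered log2 CPM among the 8126 protein-coding genes that averaged 10 CPM or more. With 4 libraries, small distances are common, and between 79 and 174 genes lay within 0.25 of each of these 6. Nearest to Csf1 were Fam49a (0.0508), Kif20a (0.0697) and Gas6 (0.0758), and nearest to Csf1r were Mthfd1l (0.0269), Eno1 (0.0425) and Bmp2k (0.0578). Sfpq (0.0157), Mpp6 (0.0517) and Itpripl1 (0.0528) were nearest to Csf2ra. Ccp110 (0.0241), Arrb2 (0.0371) and Lyz1 (0.0638) were nearest to Csf2rb. For Csf3r the nearest were Emsy (0.0403), Trim29 (0.0655) and Acsf2 (0.0731), and for Jak2 they were Hgf (0.0308), Ly75 (0.0630) and Stab1 (0.0888). Within the 9 genes, Csf1r lay 0.21 from Csf2rb and 0.25 from Jak2, Csf1 lay 0.22 from Csf2ra, and Csf1 and Csf2rb2 were farthest apart at 2.04.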

How the data were processed

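Total RNA of 4 cultures was sequenced after library preparation with the NEBNext Ultra kit. The submitters' processing notes name HISAT2 2.0.5 and DESeq2; the genome build and the strand setting are not given in the sources used here. A single table was deposited, with raw read counts of every gene as whole numbers beside its length, coordinates and biotype; all 4 count columns were matched to samples by name. The coordinates of 53462 of 54409 genes shared with GENCODE M21 were identical to it, and those of Csf1r and Csf2ra, which differ, were taken from the table.

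The filter asked for 10 reads or more in any 1 library. Libraries were scaled by TMM in edgeR 4.0.16 (R 4.3.3; scaling 0.986 to 1.03), and log2 ratios were taken after adding 0.5 reads. Intervals are exact Poisson for a level and exact Clopper-Pearson for the split of reads between 2 libraries, and cover counting error only. The interval of a difference between responses is a normal approximation from the 4 counts. The members, gene lists and markers were chosen with earlier results of these data known. Named were the 9 genes, the ligands, overlapping genes and the 3 nearest genes by pattern. List genes that reached 2-fold in the same direction in both arms or both media were named as well. List genes that passed the additive fit or reached 2-fold in 1 arm, and marker genes, were also named after their values were seen. Il3ra, Jak1, Pim1, Socs1 and AC105061.2 were named outside these rules. Folds were not computed at 3 reads or fewer, apart from lower bounds at a floor of 3 reads per library. The steps were tested on simulated data. Some genes of the lists are not reported here by name.

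Results were recomputed with the size factors of DESeq2 1.42.0, with total counts, without the filter, with 10 reads required in each library, 5 reads added, protein-coding genes alone, near-identical pairs summed, an additive edgeR fit with Benjamini-Hochberg adjustment and, chosen after seeing the data, a 1.5-fold threshold and the length of 1 annotated transcript per gene. Shared words and coding alignments were computed with Python 3.11.15 and biopython 1.88, and figures with matplotlib 3.10.9.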

Additional observations from a re-analysis of the deposited data

How the results depend on the processing

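The counts of genes that reached 2-fold depended on where the line was drawn, since Csf1r and Csf2rb in both arms, Jak2 with DMSO and Csf2rb2 with CH223191 lay next to it. With DMSO, 3 of the 9 genes were at least 2-fold different between 4T1-CM and normal medium, 1 when libraries were scaled by total counts, 4 with 10 reads required in each library, 2 with near-identical pairs summed and counted once, and 6 at the 1.5-fold threshold chosen after seeing the data, where 35.3% of all genes passed. With CH223191 the count was 2, 3 with 10 reads required in each library, 1 with pairs summed (Csf2rb and Csf2rb2 together were at 0.99) and 6 at 1.5-fold, where 38.4% passed. Over these alternatives the median log2 ratio of the 9 genes ranged from 0.53 to 0.60 and from 0.82 to 0.87 for 4T1-CM in the DMSO and CH223191 arms, and from -0.13 to -0.05 and from -0.06 to -0.04 for CH223191 in normal medium and 4T1-CM, and 0 called ratios changed sign. Of 270 recomputed values of single genes, 260 stayed within their counting interval, and the other 10 came from total counts (6) and from pairs summed (4). Summing pairs leaves the values of genes outside the pairs unchanged, so not all of the 270 could move. Total counts moved the median of all genes by at most -0.05. No paired analysis was possible because each condition had 1 library and the labels give no replicate numbers. With 1 library per condition, the spread between cultures is unknown, and the intervals do not cover it.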
